A study of Drosophila melanogaster with 2 samples.

Results

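The 32 genes described here are patterning regulators of the Drosophila melanogaster embryo, chosen by name from the gap, pair-rule, segment polarity, terminal and related classes, of 13945 protein-coding genes in all. Chromatin bound by an org-1 protein fused at its C-terminal end to green fluorescent protein was measured by ChIP-seq in whole embryos of both sexes, collected from 2 to 24 hours, from 1 transgenic line. Biological replicates 1 and 2 of this line make up the only group, and no second genotype, stage or treatment was analysed here. The labels give the precipitating antibody once as anti-GFP and once as org-1, and do not name the promoter that drives the transgene. Each summit of the authors' optimal peak list (4434 summits) was given to a gene if it lay in the gene or within 5 kb of either end, on the genome build dm6. The authors name this list as thresholded on rank agreement between replicates, and its regions are the 4434 strongest of the pooled candidate list. The peak height is the authors' signal value, which has no unit. Optimal regions keep their signal from the pooled candidate list, and each replicate has a candidate list with signals of its own. How signals scale between these lists is not given in the sources used here, so values of different lists are set side by side without a test. Read depth is unknown from these lists. In whole embryos, strong binding in few cells and weak binding in many cannot be told apart.

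The body plan of the fly embryo is laid down by a cascade of transcription factors. Maternal gradients such as that of Bicoid set up broad domains of gap gene expression, the gap proteins place the stripes of the pair-rule genes, and these then define the segment polarity genes that mark each segment's borders. Many of the same genes are used again later in the nervous system, the gut, the limbs and the mesoderm. Org-1 itself is a T-box factor of the Tbx1 group that works in muscle founder cells.

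Summits were found at 10 of the 32 genes, and are given by class, although each class holds only 2 to 7 genes. Both maternal gradient genes (bcd and cad) and the 3 genes of the odd family and bowl group other than odd itself (drm, sob and bowl) carried summits. Among the 7 pair-rule genes only h did, and none of the 4 gap genes, the 2 terminal genes, the 4 segment polarity genes or the 2 POU genes had a summit in its window. The head genes oc and cnc, the Sox gene D and the zinc finger gene tsh made up the rest. These counts by class depend on the window. With 10 kb tll, odd, gsb-n, ems, btd, zen and salm gained a summit (17 of 32 genes, beside 56.2% of all genes). Over all protein-coding genes the share with a summit was 41.0%, so the share of the listed genes (31.2%) was below this background. The count was 9 with the strongest regions of replicate 1 alone (background 40.4%) and 11 with those of replicate 2 alone (background 40.5%). With a window of 2 kb it was 8 of 32, beside 28.0% of all genes. No test of these differences was made, since the genes were listed with results of these data known.

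**Figure D1:**
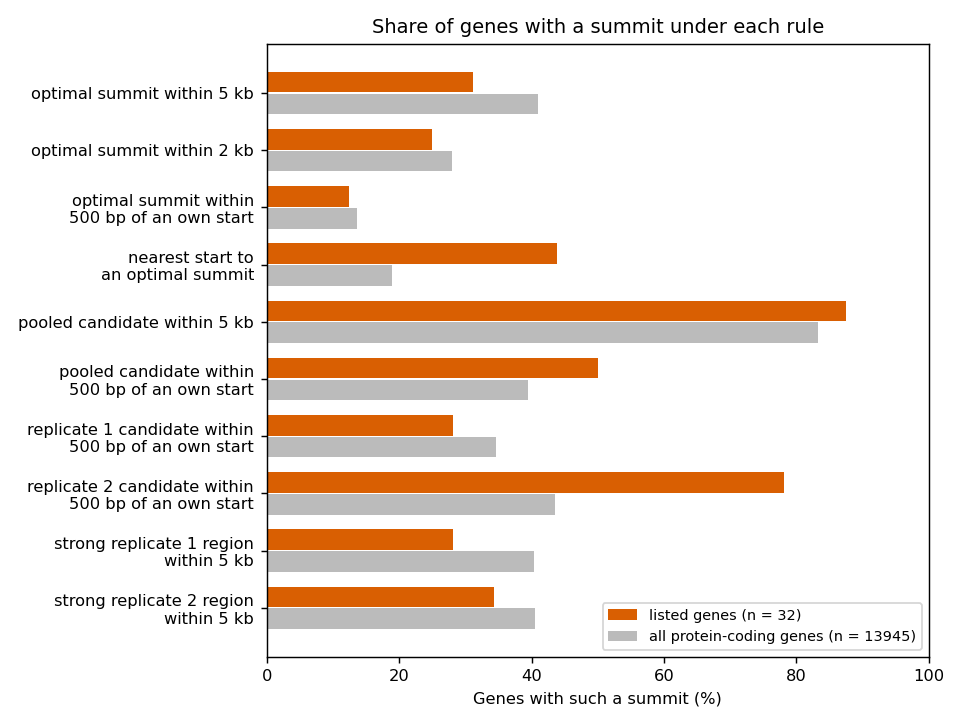
Percent of the 32 listed genes (orange) and of all 13945 protein-coding genes (grey) with a summit under each of 10 rules. The listed genes lie below all genes for optimal summits within 5 kb (31.2% beside 41.0%) and above them for the nearest start (43.8% beside 19.0%) and for replicate 2 candidates at own starts (78.1% beside 43.6%).

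Genes with longer windows more often held a summit, and the listed genes are somewhat long. Their windows had a median of 13915 bp, beside 12166 bp over all genes. All genes were split by window length into 4 classes of nearly equal size. In the longest class 6 of 14 listed genes had a summit, beside 56.8% of all genes in it. In the next class 4 of 12 had a summit, beside 42.5%, and in the class below that 0 of 6, beside 37.6%. The median GC content of the windows was 43.3% for the listed genes and 43.8% for all genes.

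Weak candidate regions were no rarer at these genes than elsewhere. The pooled candidate list, which runs on from the optimal peaks down to a signal of 24.0, placed a summit at 28 of the 32 windows, beside 83.3% of all genes. Its density was 2.72 candidates per 10 kb of listed gene windows and 2.40 over the windows of all genes. Optimal summits were at 0.364 and 0.425 per 10 kb. Windows of neighbouring genes can overlap. Over the joined windows of the listed genes there were 36.9 optimal summits per Mb, beside 33.1 over the arms, the other order. The strongest pooled candidate had a median signal of 67.9 over the listed genes and 75.3 over all genes, with a gene that had none counted as 0. This order turns with a 2 kb window (61.3 beside 43.2). It also differs between replicates, with medians of 35.5 beside 41.4 in replicate 1 and 42.4 beside 39.1 in replicate 2.

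**Figure D2:**
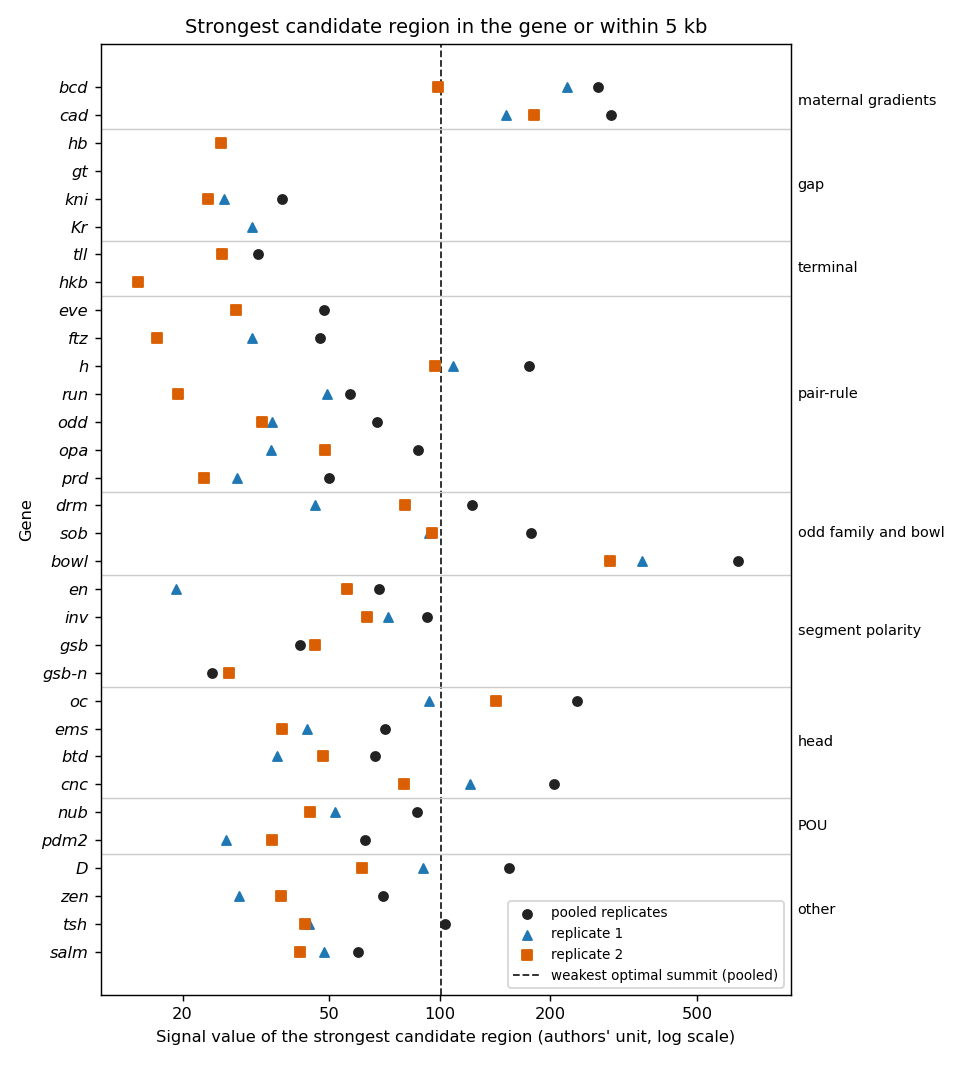
Signal value (log scale) of the strongest candidate region in each gene or within 5 kb, in the pooled list (circles) and in replicates 1 (triangles) and 2 (squares), with genes grouped by class. The 10 genes with an optimal summit lie to the right of the dashed line at 100.7, the weakest optimal summit, in the pooled list, and bowl (645) lies farthest to the right. A gene without a symbol has no candidate in that list.

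The sequences from 50 bp before to 50 bp after the strongest summits are shown so that the letters under the strongest signals can be read. Their GC content lies between 20.8% and 38.6%, around the median of 33.7% for all optimal summits, and none holds the T-box core AGGTGTG, which 0.586% of all optimal summits hold. They are plus-strand sequences of the RefSeq release 6 genome (dm6), each centred on the strongest summit of its gene, for the 7 genes with the strongest summits, and capitals mark the searched words TATAAA and TTTATG on either strand. The windows lie at chr2L:3771420-3771520 (bowl), chr2L:20780896-20780996 (cad), chr3R:6763014-6763114 (bcd), chrX:8627320-8627420 (oc), chr3R:23190050-23190150 (cnc), chr2L:3574131-3574231 (sob) and chr3L:8672632-8672732 (h).
bowl: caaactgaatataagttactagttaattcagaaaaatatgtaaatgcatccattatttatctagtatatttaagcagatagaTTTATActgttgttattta
cad: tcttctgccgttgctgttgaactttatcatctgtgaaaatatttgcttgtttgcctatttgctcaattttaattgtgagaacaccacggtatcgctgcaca
bcd: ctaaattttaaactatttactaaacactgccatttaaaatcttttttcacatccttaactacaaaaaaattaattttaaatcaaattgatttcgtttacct
oc: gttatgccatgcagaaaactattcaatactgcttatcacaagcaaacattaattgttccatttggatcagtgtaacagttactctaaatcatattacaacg
cnc: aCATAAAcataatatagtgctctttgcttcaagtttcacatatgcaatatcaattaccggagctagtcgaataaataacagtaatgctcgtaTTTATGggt
sob: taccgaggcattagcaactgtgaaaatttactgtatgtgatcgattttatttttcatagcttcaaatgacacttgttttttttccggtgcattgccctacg
h: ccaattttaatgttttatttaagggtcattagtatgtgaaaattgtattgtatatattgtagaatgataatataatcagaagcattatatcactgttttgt

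The maternal gradient genes each carried 2 summits, but in both genes 1 of them sat at the start of a neighbour. The gene bcd (FBgn0000166, 3R) encodes the homeodomain protein Bicoid, whose gradient patterns the anterior. Its stronger summit had a signal of 269 in the pooled list, 221 in replicate 1 and 98.7 in replicate 2. This summit lay 340 bp upstream of the start of Ama, inside that gene, and 3598 bp upstream of bcd. The weaker bcd summit (127, with 58.8 and 65.8 in replicates 1 and 2) lay between genes, 1408 bp upstream of the bcd start. The gene cad (FBgn0000251, 2L) encodes the posterior homeodomain factor Caudal. An intron of cad, 10052 bp downstream of the nearest cad start, held a summit of 291 (111 in replicate 1 and 180.1 in replicate 2). The other summit in its window (251, with 151 and 77.2) lay 321 bp upstream of Pomp. Each gene keeps a summit of its own when those at the starts of other genes are left out.

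The gap and terminal genes, which encode transcription factors of broad domains and of the ends of the embryo, held few candidate regions. At hb (FBgn0001180), gt (FBgn0001150) and Kr (FBgn0001325) and at the terminal gene hkb (FBgn0261434) the pooled list held no candidate at all within 5 kb. The gene gt had none in either replicate, hb had none in replicate 1 and a strongest candidate of 25.5 in replicate 2, and hkb had only 15.1 in replicate 2. Kr showed the reverse, with 30.9 in replicate 1 and none in replicate 2. The nuclear receptor genes kni (FBgn0001320) and tll (FBgn0003720) had strongest pooled candidates of 37.3 and 32.01, ranks 16393 and 20329 of 30000. At kni the strongest replicate values were 25.9 and 23.4, and at tll replicate 1 had no candidate and replicate 2 reached 25.6. Both pooled values are less than the weakest optimal summit (100.7). The nearest optimal summit lay 59226 bp from Kr, 57669 bp from kni, 48693 bp from hkb, 30376 bp from gt, 20322 bp from hb and 6023 bp from tll.

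Among the pair-rule genes, most of which are expressed in stripes of alternate segments, h stood apart. The gene h (annotated as hry, FBgn0001168, 3L) encodes the bHLH repressor Hairy and carried 3 summits. The strongest (175, with 108 in replicate 1 and 63.8 in replicate 2) lay on 3L from 8672454 to 8672909, between genes and 3077 bp upstream of the start. A summit of 131 (52.4 and 81.3) lay 8058 bp downstream of the start, and a summit of 112 (73.4 and 97.1) lay 183 bp upstream of it. Replicate 1 was higher at the first of these and lower at the others, so the order of the h summits differs between replicates. The h locus also had the most optimal summits beyond its window, with 4 further ones nearer to its start than to any other gene's and with signals from 101.4 to 169.6.

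The other 6 pair-rule genes had weak candidates only. The zinc finger gene opa (FBgn0003002) came closest, with a pooled signal of 87.2 in an intron (34.7 in replicate 1 and 48.7 in replicate 2), rank 5412. It was followed by the zinc finger gene odd (FBgn0002985, 67.5), the Runt domain gene run (FBgn0003300, 57.2), the Pax gene prd (FBgn0003145, 50.1), the homeobox gene eve (FBgn0000606, 48.5) and the homeobox gene ftz (FBgn0001077, 47.1). The strongest eve candidate, 1907 bp downstream of the eve start, overlapped no candidate of either replicate. For run the strongest candidate of replicate 1 (49.3) exceeded that of replicate 2 (19.5), and for ftz likewise (30.9 and 17.1). None of these 6 had a region among the 4434 strongest of either replicate.

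The genes drm, sob and bowl together held 8 of the 23 summits, while odd had none within 5 kb. The genes odd, drm, sob and bowl encode related zinc finger proteins, lie on arm 2L and act in gut and leg development. On this arm drm, sob and odd lie between positions 3539247 and 3606756, and bowl lies apart from them, starting at 3771700. The gene bowl (FBgn0004893) had 5 summits, the most of the 32 genes in the optimal list within 5 kb. This count rests on the replicates unequally, as bowl had 8 of the 4434 strongest regions of replicate 1 and 3 of those of replicate 2. In replicate 2 alone cnc (5) and h (4) had more, and with a 10 kb window cnc had 7 optimal summits and bowl 6. Its strongest, on 2L from 3771281 to 3771685 and 230 bp upstream of a bowl start, had a signal of 645 in the pooled list, 354 in replicate 1 and 289 in replicate 2. It ranked 178th in the pooled list, 224th in replicate 1 and 176th in replicate 2, the highest rank of all summits at the listed genes in each list. Of the 1000 strongest optimal regions, only this summit and the cad intron summit lay in a window of the listed genes.

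The remaining bowl summits were of middle strength. Summits of 224 (153 in replicate 1 and 71.1 in replicate 2) and 222 (113 and 104) lay inside the gene, 2086 and 2830 bp upstream of its nearest annotated start. A summit of 129.9 (102 and 29.8) lay 1682 bp upstream of the gene. The fifth (178, with 129 and 48.8) lay 7520 bp downstream of a bowl start and only 709 bp upstream of bark. Replicate 1 was the higher replicate at all 5 bowl summits, beside 68.9% of all optimal summits with a candidate in each replicate.

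Within 5 kb, the summits of sob and drm lay downstream of these genes. The gene sob (FBgn0004892) had summits of 177 (93.7 and 95.2) and 169.7 (79.5 and 93.3), 6588 and 7279 bp downstream of its start, for both of which the nearest start was that of CG43815. Beyond the window, summits of 228 (146 and 76.5) and 111 (53.1 and 49.3) lay 7765 and 6722 bp upstream of sob and were nearest to its start, so the strongest summit assigned to sob by nearest start is an upstream one. At drm (FBgn0024244) a summit of 122 lay 9356 bp downstream of a start and 666 bp beyond the end of the gene, with 44.1 in replicate 1 and 80.2 in replicate 2, and no region of drm was among the 4434 strongest of replicate 1. The pair-rule gene odd, from the same cluster, had its nearest summit 5563 bp from the gene, just outside the window. This summit had a signal of 117 and was nearest to the odd start.

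The segment polarity genes had candidates but no optimal summit, and the strongest candidate of replicate 2 exceeded that of replicate 1 at en, gsb and gsb-n but not at inv. The homeobox gene inv (FBgn0001269) had the strongest pooled candidates among the 22 listed genes without a summit, 92.1 (rank 5005) in an intron and 90.7 upstream of the gene. The intron candidate had 72.5 in replicate 1 and 33.4 in replicate 2, and the upstream one 28.6 and 63.4. Thus inv had a region among the 4434 strongest of each replicate, but not the same region. For its neighbour en (FBgn0000577), the homeobox gene of posterior compartments, the intron candidate of 68.2 had a counterpart of 56.0 in replicate 2 and none in replicate 1. The Pax gene gsb (FBgn0001148) had a candidate of 41.8 at its start, with 46.0 in replicate 2 and none in replicate 1, and gsb-n (FBgn0001147) reached 24.1. Over their windows gsb and gsb-n had 0 candidates in replicate 1 and 3 and 7 in replicate 2.

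Of the genes that pattern the head, oc and cnc carried summits and ems and btd did not. The gene oc (orthodenticle, FBgn0004102, X), a homeobox gene of the anterior head, had a summit of 237 (93.7 in replicate 1 and 142 in replicate 2) on X from 8627269 to 8627513. This summit lay between genes, 2789 bp beyond the end of oc and 15806 bp downstream of its nearest start. The gene cnc (FBgn0262975, 3R) encodes a bZIP factor of the Nrf2 family and had 4 summits, of which the strongest (205, with 121 and 79.8) lay 319 bp inside a cnc start. Introns of cnc held summits of 145 (73.8 and 65.7) and 125 (89.1 and 50.8), while a summit of 125 (44.7 and 76.4) lay in a UTR of the neighbour CG4467. Replicate 1 was higher at all cnc summits but the last, beside 68.9% of all optimal summits with a candidate in each replicate. The homeobox gene ems (FBgn0000576) and the zinc finger gene btd (FBgn0000233) had strongest pooled candidates of 71.2 and 66.7.

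The remaining genes gave a mixed picture. The Sox gene D (Dichaete, FBgn0000411) had summits of 154 (90.0 in replicate 1 and 61.4 in replicate 2) and 113 (66.7 and 48.7), both downstream of the gene and between genes, and with the strongest regions of replicate 2 alone D had 1 in place of 2. The trunk zinc finger gene tsh (teashirt, FBgn0003866) had a summit of 103 (44.1 and 43.0), 390 bp inside its start, which was absent from the 4434 strongest regions of either replicate. This tsh summit, rank 4286 of 4434, is among the weakest of the optimal list. The POU genes nub (FBgn0085424) and pdm2 (FBgn0004394) and the genes zen (FBgn0004053) and salm (FBgn0261648) had strongest pooled candidates of 86.9, 62.7, 70.1 and 59.9. The nub window is long, at 50511 bp, and held 13 pooled candidates without an optimal summit.

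Together the listed genes held 23 distinct summits, and these lay between genes more often than is usual in the list. Of the 23, 11 were intergenic, 6 were within 500 bp of a start, 5 were in introns and 1 was in a UTR. In the whole optimal list 17.9% of summits were intergenic, 37.6% were at starts and 43.1% were in introns. Of the joined windows of the listed genes 40.2% was intergenic and more than 500 bp from a start, beside 29.99% of the arms. Per length of such sequence the listed genes had 43.9 summits per Mb (11 summits), beside 19.8 over the arms. The first value covers only sequence within 5 kb of a listed gene, while the arms value takes in intergenic sequence at any distance from a gene. Around starts the density was 93.6 per Mb (6 summits), beside 109, and elsewhere in genes 19.4 (6 summits), beside 25.2. These counts are small and were not tested.

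**Figure D3:**
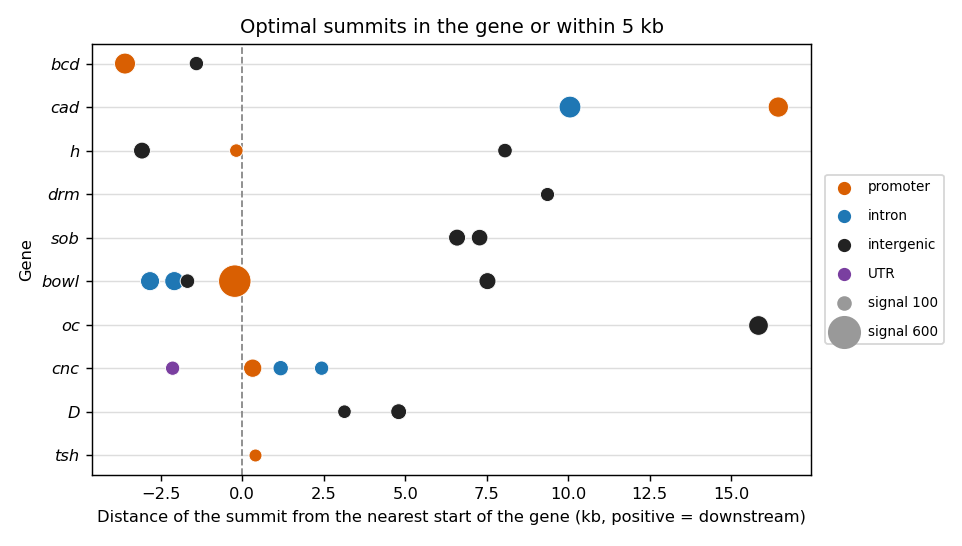
Distance in kb from each optimal summit to the nearest start of the gene whose window holds it, for the 10 genes with a summit. The area of a point is proportional to the pooled signal and its colour gives the annotation at the summit, whichever gene that belongs to. The bowl summit of 645 lies 230 bp upstream of a start, while the summits of sob, drm, oc and D lie downstream, up to 15806 bp at oc.

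Summits far from genes were also assigned by the nearest start. By this rule 14 of the 32 genes were nearest to a summit, beside 19.0% of all genes. The genes ems, ftz, salm, odd and en were reached only in this way, as all of their nearest summits lay beyond 5 kb of the gene. The gene cad was lost by this rule, since the summits in its window were nearest to the start of Pomp. At ems there were 3 such summits, of 205, 154 and 147. The stretch of arm nearest to a gene's own starts had a median of 23.2 kb for the listed genes and 4.33 kb for all genes, so a higher share by this rule goes with more sequence searched. Over these stretches the listed genes had 39.4 summits per Mb, beside 33.1 over the arms.

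Own starts carried optimal summits at 4 genes, h, bowl, cnc and tsh, beside 13.6% of all genes. The candidate lists gave a different picture in each replicate. In replicate 2, 25 of the 32 genes had a candidate summit within 500 bp of an own start, beside 43.6% of all genes. In replicate 1 the count was 9, beside 34.6%, and in the pooled list 16, beside 39.5%. All 9 genes of replicate 1 were also among those of replicate 2, beside 25.1% of all genes with a candidate in both. No listed gene had one in replicate 1 alone, beside 9.52% of all genes, and 16 had one in replicate 2 alone, beside 18.5%. These 16 included hb, kni, tll, eve, odd, prd, en, inv, gsb, gsb-n and salm.

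The candidates at starts seen in replicate 2 alone were weak. Their signals ran from 14.4 to 46.0 with a median of 24.2, beside a median of 22.6 over all 30000 candidates of that replicate, whose weakest is 14.3. Among the 4434 strongest regions of replicate 2, 3 listed genes had one at an own start, beside 13.8% of all genes. The sequence around the starts of the listed genes was richer in G and C than at other genes, with a median of 47.5% beside 42.6%. Among the genes with the highest GC around starts, the top of 4 classes, 50.1% had a candidate at an own start in replicate 2 and 25.6% in replicate 1. Of the 22 listed genes in that class, 16 had one in replicate 2 and 6 in replicate 1. In the class below it, all 8 listed genes had one in replicate 2, beside 50.4% of all genes, and 3 in replicate 1, beside 36.9%. Each of the lower classes held only 1 listed gene. The part of base composition in this difference between replicates was not tested, and with 1 library on each side it has no replicate check.

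**Figure D4:**
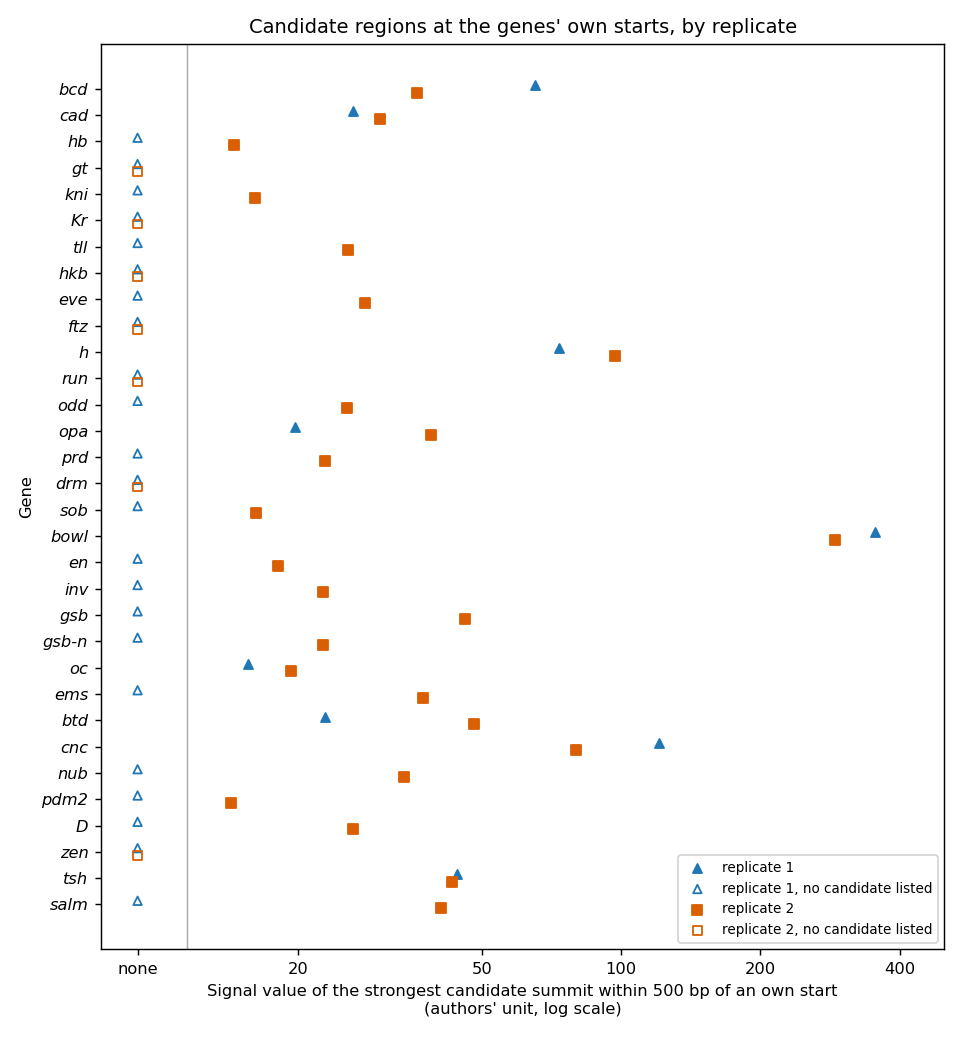
Signal value (log scale) of the strongest candidate summit within 500 bp of an own start of each listed gene, in replicate 1 (triangles) and replicate 2 (squares). Open symbols on the left mark genes with no candidate in that replicate. Filled squares without a filled triangle are the 16 genes found in replicate 2 alone, with signals up to 46.0.

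Each of the 23 optimal summits overlapped a candidate in both replicates, as did 4264 of all 4434. The optimal regions are the 4434 strongest of the pooled list, so one can be listed without a candidate in each replicate. Of the 23, replicate 1 had the higher signal at 14. The share of replicate 1 in the summed signal had a median of 52.9% and ran from 35.5% at drm to 77.3% at the bowl summit of 129.9. Over the 4264 optimal summits with a candidate in each replicate the median was 57.8%, and replicate 1 was higher at 68.9%. Across the 23 summits the replicate signals had a Spearman rho of 0.30, and Pearson's r of the log2 signals was 0.46. Both describe sites of a single pair of libraries. The sites are the top of a pooled list of the same libraries, which the authors thresholded on rank agreement.

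The GC content of a summit went with the replicate that favoured it. Within 50 bp, the 23 summits held from 20.8% to 63.4% GC, with a median of 32.7%, beside 33.7% for the whole optimal list. The share of replicate 1 and the GC content had a Spearman rho of -0.56 over these summits and -0.47 over all optimal summits. The summits richest in GC were those at the starts of tsh (63.4%) and h (57.4%) and the downstream h summit (57.4%). The bowl summit at the start held 21.8%, and the bowl summit of 129.9, with the highest share of replicate 1, held 20.8%.

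**Figure D5:**
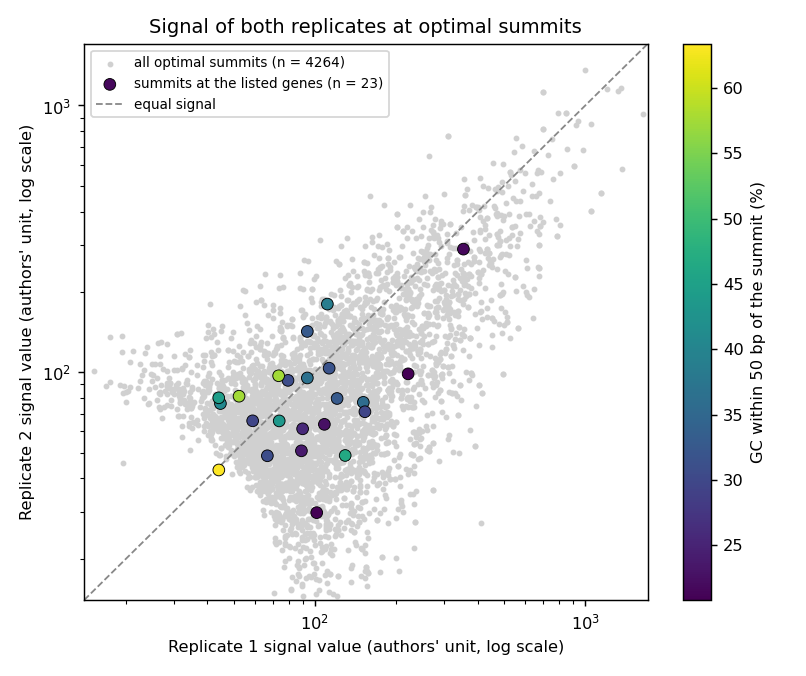
Signal value of replicate 2 (vertical) against replicate 1 (horizontal), both on log scales, at the 23 summits of the listed genes, coloured by GC content, over the 4264 optimal summits with a candidate in each replicate (grey). The points on the dark, AT-rich end of the scale lie mostly below the line of equal signal, and the 3 summits above 50% GC lie near or above it.

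No searched word was present at more than 5 of the 23 summits. Both strands were read out to 50 bp on either side of each summit, and different words could share bases. The T-box core AGGTGTG was present at 0 of the 23 summits, beside 0.586% of all optimal summits and 0.943% of all pooled candidates. It occurred 64 times in the joined windows of the listed genes, or 1.03 times per 10 kb beside 0.857 over the arms. The occurrence closest to a summit lay 231 bp away, and the median distance was 3926 bp, beside 3801 bp for all optimal summits. These distances describe the letters only.

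The other words were present at some summits or at none. The Caudal-type word TTTATG was present at 5 summits (13.2% of all optimal summits and 11.6% of pooled candidates), the TATA word TATAAA at 4 (20.1% and 12.8%), GAGAG at 2 (10.6% and 12.15%) and the homeodomain word TAATTA at 1 (8.95% and 6.55%). The Bicoid-type word TAATCC (2.91% and 3.01%), the Zelda-type word CAGGTAG (0.406% and 0.457%), the forkhead word TGTTTAC (4.49% and 3.39%) and the DREF word TATCGATA (0.857% and 0.393%) were at none. Out to 100 bp on either side, TAATTA was at 8 summits (16.96% of all optimal summits), TTTATG at 8 (23.2%), TATAAA at 7 (34.3%) and GAGAG at 7 (24.2%), while CAGGTAG (0.857%), TGTTTAC (7.85%) and TATCGATA (1.69%) were each at 1. Among the strongest candidates of the 18 genes with candidates but no summit, TATAAA was present at 4, TTTATG at 2, GAGAG at 1 and the other words at none.

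Where the window ends bears on which genes are counted. The summits farthest from their gene but still inside it lay 4760 bp from h (131), 4523 bp from sob (169.7) and 4200 bp from cad (251). The nearest ones outside lay 5563 bp from odd (117), 6023 bp from tll (109), 6456 bp from btd (492), 6680 bp from zen (127), 7489 bp from salm (149), 8443 bp from gsb-n (107) and 8835 bp from ems (147). The btd one lay 664 bp upstream of nej and that of zen was the bcd summit, whereas those of odd, salm and ems were nearest to these genes themselves.

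Other patterning genes, grouped by role, gave counts on both sides of the 41.0% background. Of 50 such genes 26 had a summit. Among 10 maternal and activator genes 8 did, led by the corepressor gene gro (645), cic (405) and Stat92E (289). The dorsoventral genes followed with 7 of 13, led by brk (470, in an intron of CG1677), sim (427) and dpp (271). Among 8 paralogues and further pair-rule genes 4 had a summit, led by slp2 (656) and slp1 (153), while Sox21a and Sox21b share a summit (128). In the segment polarity pathway 4 of 11 did, led by ptc (315, in an intron of Acsl), nkd (290.1) and Wnt6 (219), and among the Hox genes 3 of 8, led by Abd-B (216), Antp (189) and lab (183). The maternal gradient genes bcd and cad, with 269 and 291 for their strongest summits, lie within the range of the maternal list. The bcd one lies at the start of Ama, however, and the summit nearest to the bcd start has 127. In the maternal list the strongest summits of nos and osk likewise lie at the starts of Nsun5 and pyd, and 3 of the 10 genes have a summit at an own start. No difference between these lists was tested.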

How the data were processed

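The deposited lists come from ChIP-seq of org-1-eGFP embryos (2 biological replicates, 1 group). Per the submitters' file descriptions, regions were derived from library alignments with a control alignment on dm6. Which aligner and peak caller were used, and the read depth, is not given in the sources used here. The authors deposited a signal value per region, the −log10 q value of the region and the offset of its summit. The optimal list is the authors' list thresholded on the irreproducible discovery rate, and it was made on pooled replicates. The name of the list does not say whether that rate was taken between the replicates. The regions of the optimal list are the 4434 strongest of the pooled list. The candidate lists hold regions and background, 30000 in the pooled list. Lists on the older dm3 build were not used here.

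Summits were assigned to Ensembl release 115 gene models if they lay in the gene or within 5 kb, and to own starts within 500 bp. Overlapping candidates of the replicates (at least 1 bp) gave replicate signals. For 3 symbols (h of the 32 genes, and nos and vfl of the other lists) the gene models hold another name, and they were matched through synonyms. Every listed gene is named, with its strongest candidate where it had no summit, and the 3 strongest genes of each other list. The genes and lists were chosen with earlier results of these data known, so counts are read against the share of all protein-coding genes and no test was made. Alternatives were other windows, start distances and list lengths, each replicate alone, and other assignments. Window counting was tested on simulated data. Python 3.11.15, numpy 2.4.6, pandas 2.3.3, scipy 1.17.1 and matplotlib 3.10.9 were used.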

Additional observations from a re-analysis of the deposited data

How the results depend on the processing

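The count of 10 genes with a summit was within 1.5 times of its value with a 2 kb window (8), with any overlap of the region (10) and by the nearest start (14). It was also 10, in an alternative chosen after seeing the data, without summits at the starts of other genes. By the nearest start the order against all genes turned, to 43.8% beside 19.0% from 31.2% beside 41.0% within 5 kb. The genes counted also changed by that rule, and cad was lost. With each replicate alone the count of genes with a summit ran from 9 to 11. The genes with a summit at an own start ran from 3 to 4. The summits in the windows summed to 23 with either replicate, but not at the same genes. At bowl there were 8 with replicate 1 and 3 with replicate 2. With replicate 1 inv was gained and drm and tsh were lost, and with replicate 2 en and inv were gained and tsh was lost. A 10 kb window gave 17 genes (56.2% of all genes) and 39 summits, and a 2 kb window 13 summits in place of 23. The 1000 strongest regions gave 2 genes (15.0% of all genes), 2 summits and 1 gene with a summit at an own start (4.41%). Within 250 bp of an own start there were 2 genes (10.2%). The median strongest pooled signal, 67.9, was 61.3 with 2 kb (43.2 over all genes) and 108 with 10 kb (122 over all genes), so its order against all genes turns with a 2 kb window. These shifts came with shorter or longer windows and lists, and what lies behind them was not tested. Within 100 bp of the summit the homeodomain word was at 8 of 23 summits in place of 1, the Caudal-type word at 8 in place of 5, the TATA word at 7 in place of 4 and GAGAG at 7 in place of 2. The Zelda-type, forkhead and DREF words were at 1 each in place of 0, and the T-box core and the Bicoid-type word were still at 0. Unknown read depth, a single group and 2 libraries limit all values. No paired analysis was possible because there is only 1 group.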

Other observations

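The stretch of arm 2L from 5 kb before drm to 5 kb beyond bowl spanned 255 kb with 38 protein-coding genes. It held 19 optimal summits, or 74.5 per Mb beside 33.1 over the arms. The stretch was set by listed genes, and the 19 include the 8 summits in the windows of drm, sob and bowl. Of these 19, 5 lay in the gene for, which encodes a cGMP-dependent protein kinase, and they included the strongest of the stretch (916, rank 72). Some listed genes without a summit have a strongly marked neighbour beyond 5 kb. The summit nearest to eve, 19404 bp away, lay 163 bp upstream of a start of Pal1 and had a signal of 1219, rank 28 of the list. The summit nearest to hkb, 48693 bp away, had a signal of 429 and was nearest to the start of CG34112.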
